A study of Mus musculus with 7 samples.

Results

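The serotonin receptors described here are 10 genes, Htr1a, Htr1b, Htr1d, Htr1f, Htr2a, Htr2c, Htr4, Htr5a, Htr6 and Htr7, chosen by gene symbol from 48321 genes in the count files. The tissue was the ventrolateral ventromedial hypothalamus (VMHvl), taken by hand dissection from female mice whose ovaries had been removed. EB mice (n = 4) had received 1 µg of estradiol benzoate, an ester of estradiol, under the skin, and VEH mice (n = 3) had received vehicle by the same route. Tissue was taken 4 hours after the injection in both groups, and each library is 1 mouse. All mice were on a mixed background with 129/Sv ancestry, from a line first made with floxed Esr1 alleles. Whether the animals used carried those alleles, and their age, is not given in the sources used here.

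Serotonin is made by neurons of the raphe nuclei in the brainstem, whose axons reach the hypothalamus, so that the ventromedial hypothalamus mainly holds receptors for serotonin made elsewhere. All 10 genes encode G-protein-coupled receptors. Those of the Htr1 group and Htr5a couple to inhibitory Gi/o proteins, Htr2a and Htr2c to Gq and phospholipase C, and Htr4, Htr6 and Htr7 to Gs and adenylyl cyclase. In the hypothalamus serotonin is known for restraining feeding, in large part through Htr2c, and in the rat Htr1a agonists given into the ventromedial hypothalamus suppress the lordosis posture of sexual receptivity, a behaviour that estrogen primes there.

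The promoter windows of 3 receptors are shown. Htr1a is the receptor that changed, Htr1b is its relative with the next strongest statistical support among the Htr1 genes, and Htr2c is the receptor with the highest counts. Each window is the RefSeq sequence on GRCm38.p6 from 250 bases before to 50 after the annotated start, written on the gene's own strand. Capitals mark matches, on either strand, to the estrogen response element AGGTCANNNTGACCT, its single arm AGGTCA, the GC box GGGCGG or the AP-1 site TGANTCA. The single arm is contained in the full element.
Htr1a, chr13:105443443-105443742, plus strand: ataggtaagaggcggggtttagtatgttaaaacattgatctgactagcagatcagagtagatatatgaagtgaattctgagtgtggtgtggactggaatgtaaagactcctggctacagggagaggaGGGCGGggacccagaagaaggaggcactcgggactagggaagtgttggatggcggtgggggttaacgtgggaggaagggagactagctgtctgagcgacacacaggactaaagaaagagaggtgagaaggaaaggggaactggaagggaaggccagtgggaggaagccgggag
Htr1b, chr9:81633783-81634082, minus strand: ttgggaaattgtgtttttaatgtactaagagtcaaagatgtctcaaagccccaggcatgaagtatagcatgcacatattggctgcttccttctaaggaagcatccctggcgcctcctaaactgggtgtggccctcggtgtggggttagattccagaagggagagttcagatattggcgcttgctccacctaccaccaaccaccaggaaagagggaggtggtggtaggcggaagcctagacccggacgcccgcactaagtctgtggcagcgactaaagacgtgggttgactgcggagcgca
Htr2c, chrX:146962263-146962562, plus strand: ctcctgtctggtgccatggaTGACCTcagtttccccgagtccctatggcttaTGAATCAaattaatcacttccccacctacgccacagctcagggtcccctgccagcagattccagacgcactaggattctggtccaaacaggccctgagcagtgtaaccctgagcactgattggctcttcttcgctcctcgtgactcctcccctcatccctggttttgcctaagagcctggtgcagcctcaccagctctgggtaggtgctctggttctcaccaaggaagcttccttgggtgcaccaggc

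The Htr1a window held 1 GC box, which began 123 bases before the annotated start, and the Htr1b window held none of the 4 motifs. In the Htr2c window the single arm began 230 bases and the AP-1 site 198 bases before the start. Windows of 9 of the 10 receptors were searched, 11 windows in all, and none held the full estrogen response element. Htr4, on chromosome 18, was left out of the search. Among 32851 windows of the same length, 0.0213% held the full element, 16.3% its single arm, 35.7% a GC box and 7.81% an AP-1 site. These are letters in a short window, and no binding was measured.

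Library totals ran from 22311424 to 33302293 counts with EB and from 21037303 to 30909554 with VEH. The 10 receptors together took 4990 to 7008 counts per EB library and 5609 to 8062 per VEH library. Mitochondrial rRNA made up 7.27% to 19.8% of counts with EB and 7.88% to 26.1% with VEH. All 8 markers of the ventromedial hypothalamus were detected in every library, although Nr5a1, a transcription factor that defines this nucleus, was low at 0.927 to 3.51 CPM (counts scaled to a common library size) with EB and 1.14 to 3.15 CPM with VEH. Pgr, the progesterone receptor and a classical estrogen target, was at 190 to 230 CPM with EB and 76.6 to 89.6 CPM with VEH.

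Htr1a, the receptor that inhibits neurons by way of Gi/o proteins and potassium channels, fell after estradiol benzoate. It stood at 23.5, 19.3, 21.1 and 20.4 CPM in EB 1 to EB 4, against 34.4, 46.8 and 37.9 CPM in VEH 1 to VEH 3, where CPM is scaled by the trimmed mean of M-values (TMM). The groups did not overlap, the 4 EB libraries lay close together and VEH 2 was the highest. The mean was 21.1 ± 1.75 CPM with EB (SD, n = 4) and 39.7 ± 6.40 CPM with VEH (SD, n = 3). EB was thus at 53.0% of VEH, a log2 change of −0.92 ± 0.12 (SE; 95% interval −1.18 to −0.65; adjusted p = 0.00186, edgeR's quasi-likelihood test with Benjamini-Hochberg adjustment over 18387 genes). In bulk tissue, fewer cells with the receptor and less RNA per cell cannot be told apart.

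Htr1a is a gene of 1 exon on chromosome 13 (GRCm38, 105443639 to 105448122, plus strand), and no other annotated gene overlaps it. With any 1 library left out, its log2 change lay between −1.02 and −0.78 and its adjusted p between 0.00152 and 0.0115 (edgeR), and the smallest change came without VEH 2. DESeq2 gave −0.92 (adjusted p = 2.75e-09) and limma-voom −0.92 (adjusted p = 0.00527). Of the 10 receptors limma-voom called Htr1a alone, against 0.816% of tested genes in either direction.

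Of the 10 receptors, all of which passed the filter on low counts, Htr1a was the single gene called by edgeR at an adjusted p below 0.05. Over all tested genes, 0.207% were called lower and 0.952% were called in either direction. The groups did not overlap for 3 receptors, Htr1a, Htr1b and Htr1f, all Gi/o-coupled and lower with EB. They did overlap for the other Gi/o-coupled receptors, Htr1d (log2 change −0.06) and Htr5a (0.17). Of all tested genes, 3.99% were lower without overlap, 5.11% were higher without overlap and 9.1% were either. An unadjusted p below 0.05 was reached by 4 receptors, Htr1a, Htr1b, Htr1f and Htr4, against 9.04% of tested genes. The median log2 change of the 10 was −0.15, beside −0.01 over all tested genes, and 7 of the 10 changes were negative, beside 51.6% over all.

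**Figure D1:**
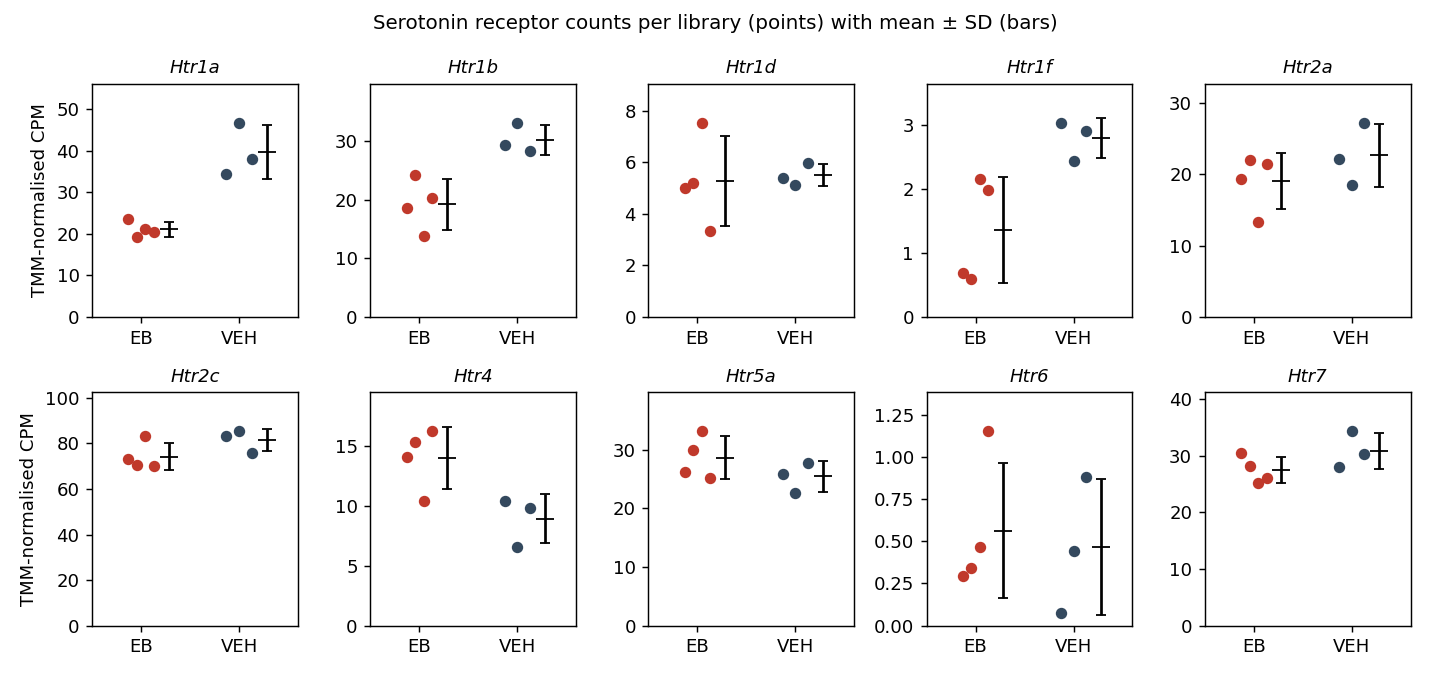
TMM-normalised CPM (vertical axes, each starting at 0) of the 10 receptors in 4 EB and 3 VEH libraries, with points for libraries and bars for the mean ± SD. All EB points of Htr1a, Htr1b and Htr1f lie below all VEH points, and for Htr1a the EB points span 19.3 to 23.5 CPM and the VEH points 34.4 to 46.8 CPM.

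The other Gi/o-coupled receptors were less uniform than Htr1a. Htr1b, a terminal autoreceptor that limits serotonin release and a heteroreceptor on other axons, stood at 18.6, 24.2, 13.8 and 20.2 CPM in EB 1 to EB 4 and at 29.3, 33.2 and 28.3 CPM in VEH 1 to VEH 3. EB 3 was the lowest library and EB 2 came nearest to the VEH range, without reaching it. The means were 19.2 ± 4.32 CPM with EB (SD, n = 4) and 30.2 ± 2.57 CPM with VEH (SD, n = 3). The log2 change was −0.65 ± 0.16 (SE), with an interval from −0.99 to −0.31, and edgeR's adjusted p of 0.0894 missed the threshold. DESeq2 called the gene (adjusted p = 0.00577; it called 1.96% of genes in either direction), as did edgeR without EB 2 (0.0330) and with no filter on low counts (0.000674). Exons of Htr1b overlap those of the antisense gene D430036J16Rik, which was at 6.11 to 8.75 CPM with EB and 6.33 to 7.39 CPM with VEH. Whether reads were counted by strand is not given, so it is not known how reads of the overlap were counted.

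Htr1f, a low-abundance receptor of the same group, had 21, 19, 51 and 48 counts in EB 1 to EB 4 and 78, 77 and 66 counts in VEH 1 to VEH 3. As CPM these were 0.585 to 2.15 CPM with EB and 2.44 to 3.03 CPM with VEH. EB 1 and EB 2, the deepest libraries, were lowest, and EB 3 and EB 4 lay just under the VEH range. The log2 change of −1.12 ± 0.41 (SE; 95% interval −2.01 to −0.23) did not pass edgeR's test (adjusted p = 0.370).

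Htr1d, the close relative of Htr1b, stood at 3.33 to 7.54 CPM in EB libraries and 5.13 to 5.99 CPM in VEH libraries. The EB range enclosed the VEH range, with EB 3 highest and EB 4 lowest, and the log2 change was −0.06 (95% interval −0.59 to 0.47). Htr5a, an inhibitory receptor found almost only in the nervous system, was at 26.2, 30.0, 33.2 and 25.1 CPM in EB 1 to EB 4 and at 25.9, 22.6 and 27.8 CPM in VEH 1 to VEH 3. Its groups overlapped, and its positive log2 change of 0.17 had an interval from −0.10 to 0.44 (adjusted p = 0.761, edgeR).

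The 2 Gq-coupled receptors showed smaller differences than Htr1a. Htr2c, the receptor through which serotonin restrains feeding, had the highest CPM of the 10, at 73.2, 70.7, 83.1 and 69.9 in EB 1 to EB 4 and 83.0, 85.3 and 75.9 in VEH 1 to VEH 3. EB 3 lay within the VEH range and the other EB libraries lay below it. The log2 change was −0.13 ± 0.09 (SE; adjusted p = 0.718, edgeR), and its 95% interval from −0.32 to 0.05 left out a fall of the size estimated for Htr1a. Htr2a, the receptor for hallucinogens in cortex, stood at 13.4 to 22.0 CPM with EB and 18.5 to 27.3 CPM with VEH. EB 3 alone was below the VEH range, and the log2 change was −0.24 (95% interval −0.62 to 0.14; adjusted p = 0.760, edgeR).

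Among the Gs-coupled receptors the estimates ran in both directions. Htr4, which raises cAMP and lies on chromosome 18, stood at 14.1, 15.3, 10.4 and 16.2 CPM in EB 1 to EB 4 and at 10.4, 6.59 and 9.78 CPM in VEH 1 to VEH 3. The groups overlapped narrowly, since EB 3 lay just under VEH 1, and the other EB libraries were above all VEH libraries. The log2 change was 0.66 ± 0.20 (SE; 95% interval 0.24 to 1.09), and it did not pass edgeR's test over all genes (adjusted p = 0.203) or DESeq2's (0.0628). With no filter on low counts, edgeR called Htr4 (adjusted p = 0.0198).

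Htr7, a Gs-coupled receptor of hypothalamus and thalamus, stood at 30.4, 28.1, 25.1 and 26.1 CPM in EB 1 to EB 4 and at 27.9, 34.3 and 30.3 CPM in VEH 1 to VEH 3. The groups overlapped, and the log2 change of −0.17 had a 95% interval from −0.41 to 0.07. Htr6, a receptor best known from striatum and cortex, was barely detected, with 9 to 28 counts per EB library and 2 to 20 per VEH library. At that depth its interval ran from −1.27 to 1.75 on the log2 scale, which includes a halving and a doubling of the RNA.

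**Figure D2:**
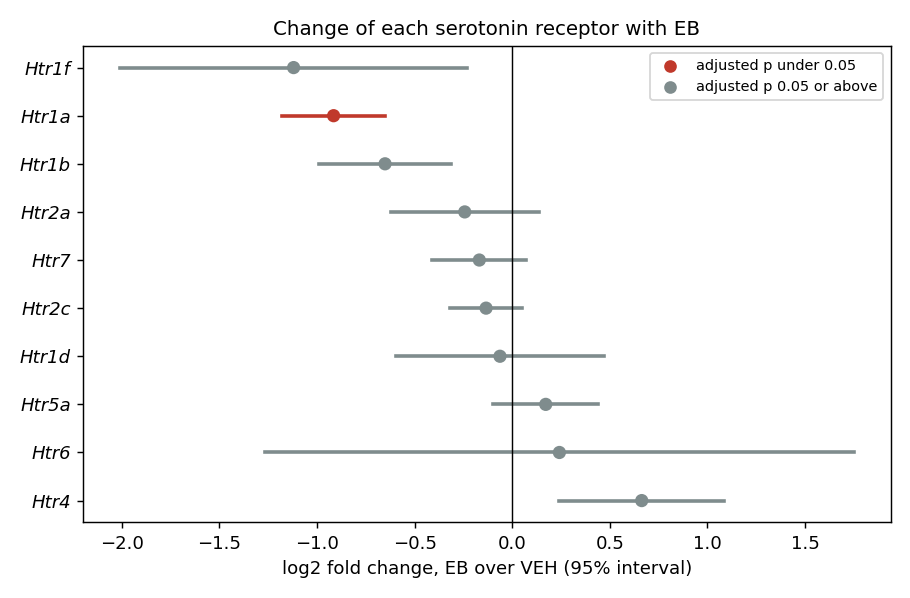
Log2 fold change of EB over VEH (horizontal axis) for the 10 receptors (rows), with points for edgeR estimates and lines for 95% intervals. Htr1a, at −0.92, is the receptor with an adjusted p below 0.05, Htr1b and Htr1f lie on the same side of 0 with intervals that leave out 0, and Htr4 lies on the other side at 0.66.

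The level of each receptor per kilobase of exon allows the genes to be compared with each other. In EB libraries the order of means was Htr7, Htr2c, Htr5a, Htr1a, Htr1b, Htr2a, Htr4, Htr1d, Htr1f and Htr6. In VEH libraries it was Htr7, Htr1a, Htr2c, Htr1b, Htr5a, Htr2a, Htr4, Htr1d, Htr1f and Htr6, so that Htr1a stood at rank 4 with EB and rank 2 with VEH. Htr7 was at 8.08 ± 0.684 CPM per kb with EB (SD, n = 4) and 9.08 ± 0.945 with VEH (SD, n = 3). Htr1a was at 4.70 ± 0.390 CPM per kb with EB and 8.85 ± 1.43 with VEH.

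Neighbours in this order often could not be separated. With EB, the ranges of Htr7 and Htr2c overlapped, and so did those of each neighbouring pair from Htr5a down to Htr1d, and those of Htr1f and Htr6. The EB gaps lay between Htr2c (lowest library 7.49 CPM per kb) and Htr5a (highest 6.17), and between Htr1d (lowest 1.04) and Htr1f (highest 0.833). With VEH, Htr7, Htr1a and Htr2c overlapped from one to the next, as did Htr5a with Htr2a and Htr4 with Htr1d, and the other neighbours were apart. Htr1a exceeded Htr5a per kb in 1 of 4 EB libraries and in 3 of 3 VEH libraries. The top of the order rests on the length used, since the exons of Htr2c sum to 9328 bases and its longest transcript has 4883. By longest transcript Htr2c was first, at 15.8 CPM per kb over the 7 libraries, ahead of Htr7 at 9.16. By coding length Htr2c was again first, at 56.1 CPM per kb, while Htr5a stood at rank 2 with 25.5 and Htr7 at rank 5 with 20.5. Htr1a was at rank 3 over the 7 libraries by all 3 lengths.

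**Figure D3:**
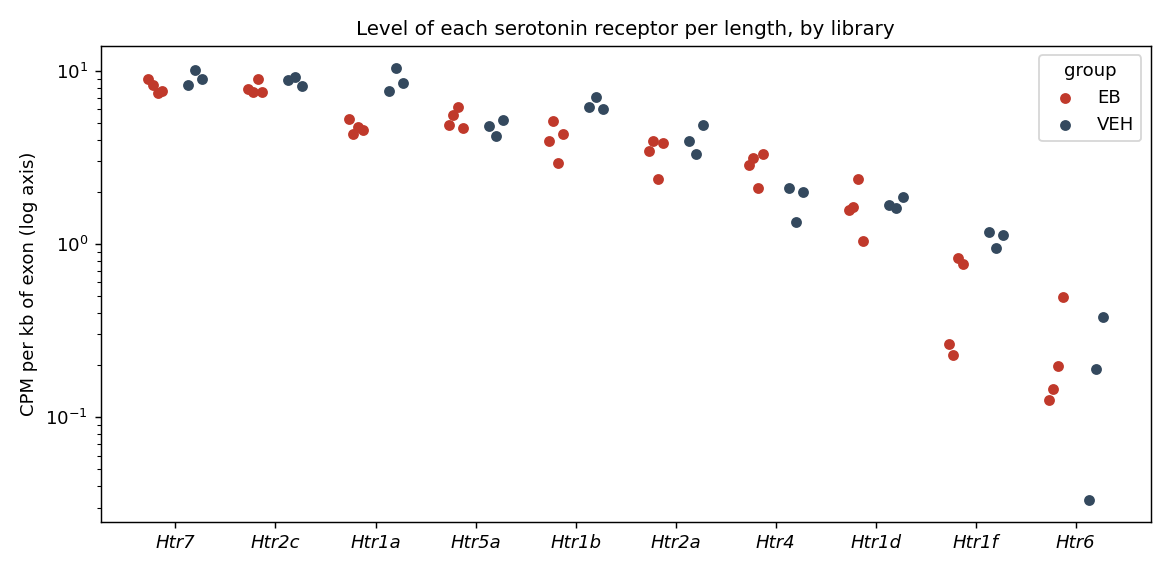
Level of each receptor in CPM per kb of exon (vertical log axis) for 4 EB and 3 VEH libraries (points), with genes in order of their mean over the 7 libraries. Levels run over more than 1 decade, with Htr7 and Htr2c at the top by this length and Htr6 at the bottom, and the EB points of Htr1a lie between 4.31 and 5.23 CPM per kb and its VEH points between 7.66 and 10.4.

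Summed per kilobase by coupling, the 5 Gi/o-coupled receptors reached 15.9, 16.9, 17.0 and 15.3 CPM per kb in EB 1 to EB 4 and 21.5, 24.2 and 22.6 in VEH 1 to VEH 3. They made up 40.2% to 44.7% of the summed level of the 10 receptors with EB and 48.1% to 50.1% with VEH. Htr1a alone made up 10.8% to 13.4% with EB and 17.1% to 21.6% with VEH. The Gq-coupled receptors took 28.8% to 29.7% of the sum with EB and 25.8% to 28.7% with VEH. Gs-coupled receptors took 25.6% to 30.5% with EB and 23.2% to 24.1% with VEH. Their summed level averaged 11.2 ± 0.994 CPM per kb with EB (SD, n = 4) and 11.1 ± 0.648 with VEH (SD, n = 3). That of the Gq-coupled receptors averaged 11.4 ± 0.103 CPM per kb with EB and 12.8 ± 0.282 with VEH. All shares are parts of the same sum, so a lower Gi/o share means a higher share for the other receptors together. These shares describe RNA, were not tested and depend on the length used. By longest transcript, Gq-coupled receptors took 38.5% to 41.3% with EB and 36.1% to 39.0% with VEH, and Gi/o-coupled receptors 33.7% to 36.6% with EB and 40.4% to 42.3% with VEH. By coding length, Gq-coupled receptors took 39.4% to 42.3% with EB and 37.7% to 40.2% with VEH, and Gi/o-coupled receptors 38.4% to 41.3% with EB and 44.6% to 47.0% with VEH. The Gi/o share and that of Htr1a were lower in every EB library than in any VEH library by all 3 lengths, while the Gq ranges overlapped between groups by the other two.

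Ratios of counts within a library do not depend on scaling between libraries. For each Htr7 count there were 0.771, 0.689, 0.839 and 0.780 Htr1a counts in EB 1 to EB 4 and 1.23, 1.36 and 1.25 in VEH 1 to VEH 3. The ratio of Htr1a to Htr2c was 0.254 to 0.320 with EB and 0.414 to 0.548 with VEH, and that of Htr1a to Htr5a was 0.637 to 0.895 with EB and 1.33 to 2.07 with VEH. Groups were likewise apart for Htr1a over Htr4, at 1.26 to 2.04 with EB and 3.31 to 7.10 with VEH, and over Htr1d, at 2.80 to 6.11 with EB and 6.33 to 9.12 with VEH. They overlapped for Htr1a over Htr1b, at 0.798 to 1.53 with EB and 1.17 to 1.41 with VEH, and over Htr2a, Htr1f and Htr6. Htr1a itself was lower in every EB library, so lower ratios to receptors that changed less follow from that. The ratio to Htr4 also carries the higher EB estimate of Htr4. The differences between receptors in their response were not tested.

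**Figure D4:**
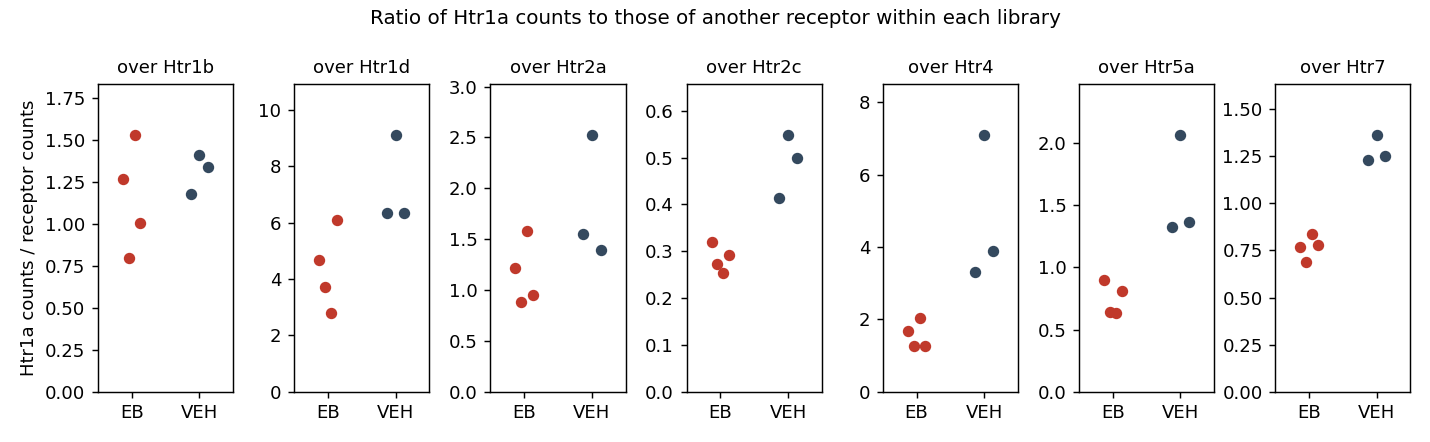
Htr1a counts divided by the counts of another receptor (vertical axes, each starting at 0) in 4 EB and 3 VEH libraries (points); Htr1f and Htr6, with few counts, are left out. EB points lie below all VEH points for Htr1d, Htr2c, Htr4, Htr5a and Htr7, as in the ratio to Htr7 at 0.689 to 0.839 with EB and 1.23 to 1.36 with VEH, and the groups overlap for Htr1b and Htr2a.

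The 4 other serotonin receptor genes in the files had low counts, and 0 of the 2 that passed the filter were called by edgeR, with 1 at an unadjusted p below 0.05 and 0 called by DESeq2. Shares over all genes tested were 0.952% called by edgeR, 9.04% at an unadjusted p below 0.05 and 1.96% called by DESeq2. Htr2b, a Gq-coupled receptor best known outside the brain, had 47, 45, 62 and 29 counts in EB 1 to EB 4 and 16, 3 and 23 counts in VEH 1 to VEH 3. The groups did not overlap, at 1.19 to 2.61 CPM with EB and 0.0950 to 1.01 CPM with VEH, while 5.11% of all tested genes were higher without overlap. Its log2 change of 1.63 ± 0.55 (SE) did not pass edgeR's test (adjusted p = 0.298). Htr3a, a subunit of the serotonin-gated cation channel, had 4 to 18 counts per EB library and 1 to 14 per VEH library. Its partner subunit Htr3b had 11 counts in EB 2 and 0 in the other 6 libraries, and Htr5b had 4 to 12 counts with EB and 1 to 28 with VEH. Neither Htr3b nor Htr5b passed the filter on low counts.

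Of 15 listed genes that make, carry and break down serotonin, 12 passed the filter and 0 were called by edgeR, with 0 at an unadjusted p below 0.05 and 0 called by DESeq2 or limma-voom. With 0.952% of all tested genes called and 9.04% at an unadjusted p below 0.05, a list of this length would hold few or no calls at the background rate. The median log2 change was −0.10. Tph2, which makes serotonin in raphe neurons, was at 0 to 0.370 CPM with EB and 0 to 0.396 CPM with VEH, and Slc6a4, the serotonin transporter, at 0.0843 to 0.849 CPM with EB and 0 to 0.264 CPM with VEH. Maoa, the monoamine oxidase that prefers serotonin, averaged 67.9 ± 9.29 CPM with EB (SD, n = 4) and 77.4 ± 6.90 CPM with VEH (SD, n = 3), with an adjusted p of 0.652 by edgeR. The vesicular transporter Slc18a2 and the decarboxylase Ddc, which dopamine neurons also use, were at 18.7 to 23.7 CPM and 15.5 to 20.3 CPM with EB and at 18.9 to 25.3 CPM and 16.9 to 22.7 CPM with VEH.

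Of 25 G proteins and effectors through which these receptors act, edgeR called 0, with 2 at an unadjusted p below 0.05 and 0 called by DESeq2 or limma-voom. Over all tested genes 0.952% were called and 9.04% had an unadjusted p below 0.05, so these counts do not stand apart from the background. The median log2 change was −0.01. The 2 were Gnaz, a Gi-family alpha subunit (log2 −0.20, adjusted p = 0.471), and Kcnj5, a subunit of G-protein-gated potassium channels (−0.50, adjusted p = 0.546). Both were named after their values were seen. Kcnj6, the main neuronal subunit of those channels, averaged 30.8 ± 4.53 CPM with EB (SD, n = 4) and 29.9 ± 5.83 CPM with VEH (SD, n = 3).

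Among 23 genes for receptor partners, desensitisation, RNA editing and Htr1a repressors, edgeR called 2 higher and 0 lower, with a median log2 change of −0.03. Over all tested genes 0.745% were called higher. Rgs4, which speeds the return of Gi/o and Gq proteins to rest, rose to 106, 103, 125 and 93.1 CPM in EB 1 to EB 4, against 45.9, 54.4 and 48.9 CPM in VEH 1 to VEH 3 (log2 1.10 ± 0.10, SE; adjusted p = 0.000102, edgeR). Rgs19, another such regulator of Gi/o proteins, was at 40.1 to 45.5 CPM with EB and 28.1 to 30.1 CPM with VEH (log2 0.54, adjusted p = 0.0112, edgeR). The groups did not overlap for either gene. Other RGS genes of the list did not rise likewise. Rgs17 was at 415 to 493 CPM with EB and 506 to 573 CPM with VEH (log2 −0.22, adjusted p = 0.232, edgeR). Rgs7 and Rgs9 had log2 changes of 0.10 and −0.03, with overlapping groups. Of the genes listed as Htr1a repressors, Cc2d1a, Deaf1 and Hes5 had log2 changes of −0.09, −0.07 and −0.06. Their adjusted p values by edgeR were 0.924, 0.932 and 0.968. Cc2d1b, listed with them, had a positive log2 change of 0.18 (adjusted p = 0.834, edgeR).

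The genes whose profile over the 7 libraries was nearest to that of Htr1a were Tmem200c, St8sia4, Tmem74, Slitrk4 and St8sia6. Likeness was the root-mean-square difference between log2 CPM values centred on each gene's mean, which was 0.106 to 0.152 for the 5 genes, while the centred Htr1a values themselves had a root mean square of 0.469. St8sia4, a polysialyltransferase that modifies Ncam1, was at 46.3 to 58.2 CPM with EB and 84.7 to 96.3 CPM with VEH. St8sia6, another sialyltransferase, was at 15.9 to 17.7 CPM with EB and 26.0 to 29.9 CPM with VEH. Slitrk4, a synaptic adhesion protein, was at 122 to 159 CPM with EB and 220 to 275 CPM with VEH, and VEH 2 was its highest library, as for Htr1a. The 5 genes were picked for this likeness, so their lower EB levels follow from the choice.

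**Figure D5:**
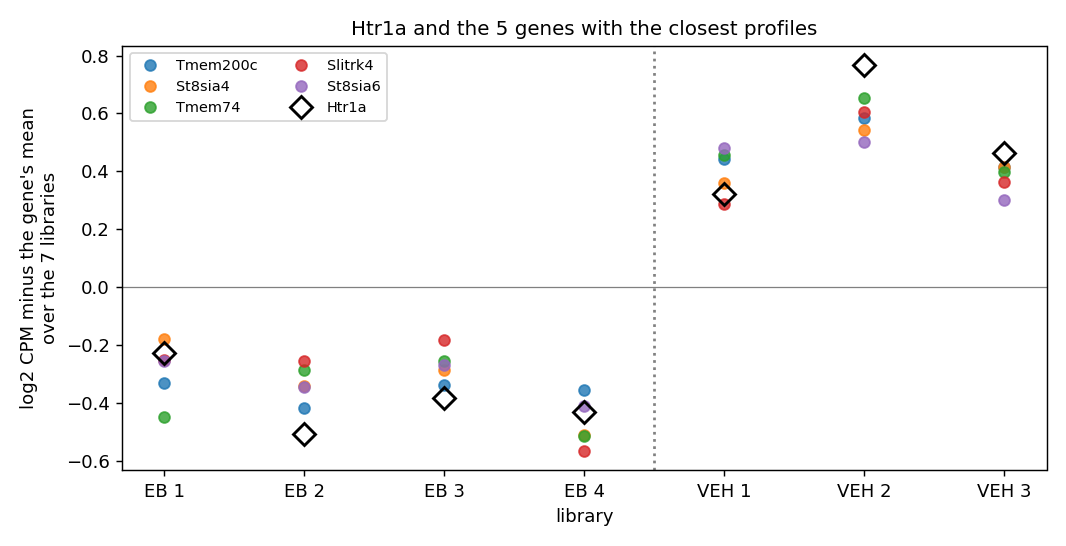
Log2 CPM minus each gene's mean over the 7 libraries (vertical axis) in EB 1 to EB 4 and VEH 1 to VEH 3 (horizontal axis) for Htr1a (open diamonds) and the 5 genes nearest to it (circles). All 6 genes are below 0 in every EB library and above 0 in every VEH library, and Htr1a stands highest in VEH 2.

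Marker lists for other cell types gave the following values beside the receptors. Of the 7 markers of serotonin neurons, Tph2, Slc6a4, Fev and Gata3 stayed under 1 CPM in every library. The rest of that list did not, with Slc18a2 at 18.7 to 25.3, Ddc at 15.5 to 22.7 and Gata2 at 0.653 to 2.76 CPM over both groups. Choroid plexus is rich in Htr2c, and its marker list summed to 551 to 627 CPM with EB and 619 to 784 CPM with VEH, of which Prlr, also a gene of hypothalamic neurons, made up the largest part. Ttr, an abundant choroid plexus transcript, was at 61.8 to 144 CPM with EB and 122 to 199 CPM with VEH. Of the 9 genes in that list, Folr1 and Aqp1 stayed under 1 CPM in every library. Over both groups, Clic6 was at 20.7 to 33.7 and Kl at 19.3 to 25.4 CPM. Kcnj13 was at 0.792 to 4.43, Otx2 at 0.190 to 2.60 and Slc4a5 at 0.0421 to 2.37 CPM. Neuronal markers summed to 4085 to 5146 CPM with EB and 4442 to 4808 CPM with VEH, and the arcuate list to 106 to 172 CPM with EB and 118 to 126 CPM with VEH. Of 16 lists, the microglial list was the one whose sums did not overlap, at 87.3 to 103 CPM with EB and 105 to 109 CPM with VEH, with 0 of its 6 markers called by edgeR. Among single tested genes, 9.1% did not overlap. Of the microglial markers P2ry12 alone did not overlap (means of 30.9 CPM with EB and 41.3 CPM with VEH). Log2 changes were positive for Csf1r (0.10) and Tmem119 (0.12) and negative for the others. Mural cell and fibroblast markers were highest in VEH 1, at 311 CPM against 123 and 199 CPM in VEH 2 and VEH 3, and ran from 142 to 243 CPM with EB. Esr1, the estrogen receptor of VMHvl neurons, was at 160 to 231 CPM with EB and 169 to 317 CPM with VEH, and VEH 2 was the highest library for Esr1 as for Htr1a. The VMHvl marker list, which includes Esr1 and Pgr, summed to 1271 CPM in VEH 2. It summed to 839 and 802 CPM in VEH 1 and VEH 3, and to 852 to 1022 CPM with EB. Of its 8 markers edgeR called 4, Pgr, Cckar and Mc4r as higher and Oxtr as lower with EB, against 0.952% of all tested genes. These sums therefore include genes that changed with EB. The part of the marker lists in the receptor values was not tested. Without VEH 2 the Htr1a log2 change was −0.78 (adjusted p = 0.00639, edgeR). Without VEH 1 and EB 4 together the gene was also called (adjusted p = 0.00373, edgeR). Leaving out libraries does not adjust for tissue content, so it does not test that part.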

How the data were processed

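Read counts per gene from 7 libraries, 1 mouse each, were analysed. The deposited files hold raw counts, not normalised by the authors. The submitters' processing notes name HISAT2, HTSeq and DESeq2 as tools and mm10 as the build. The sources used here give neither tool versions nor the annotation, strand setting and treatment of multiply mapped reads. Per the labels' protocols, 15 ng of total RNA went into each Tecan/NuGEN Trio library.

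Of 31222 genes with a count, filterByExpr (minimum count 10) kept 18387. Their counts, after TMM scaling, entered 1 fit with edgeR 4.0.16 (glmQLFit, robust, and glmQLFTest) in R 4.3.3, with no covariate, and genes were called at a Benjamini-Hochberg adjusted p under 0.05. Standard errors are the absolute log2 change over the square root of F. Replicate pairs differed by more than sampling noise (chi-square per degree of freedom 17.0 to 166). Alternatives used DESeq2 1.42.0, limma-voom 3.58.1, other scalings and filters, and libraries left out. The test was checked on simulated data.

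Lengths and positions came from GENCODE M21 on GRCm38, the assembly also called mm10, and promoters from RefSeq on GRCm38.p6, for 9 of 10 receptors. The listed symbols Grk2 and Grk3 were matched by their older names. Named genes were the 10 receptors, the other serotonin receptor genes, called genes of 3 serotonin pathway lists, Esr1, Pgr and the 5 genes nearest to each called receptor; other pathway and marker genes named were chosen after their values were seen. Members and lists were chosen with earlier results of these data known. Figures were drawn with matplotlib 3.10.9.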

Additional observations from a re-analysis of the deposited data

Results flagged for a closer look

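Htr3b, a subunit of the serotonin-gated channel, was counted in 1 library. EB 2 had 11 counts (0.339 CPM), and the other 3 EB libraries and all 3 VEH libraries had 0. The gap between EB 2 and the nearest EB library was the whole range of the group, a ratio of 1, above Dixon's 95% critical value for 4 samples. With the other 3 EB libraries at 0, any count in EB 2 would give that ratio, so it does not measure how far EB 2 lies from them. A count of 0 allows up to 3 counts in a library, which is 0.0924 to 0.132 CPM over the 7 libraries. The check was made for 21 genes, of which 1 passed, and chance passes about 1 in 20 groups.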

How the results depend on the processing

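Htr1a kept its direction and its call under all 18 alternatives, with log2 changes from −1.02 to −0.78 and adjusted p from 2.05e-09 to 0.0115. For the alternative threshold of 0.1 this was fixed in advance, since it reuses the main fit. The count of receptors called was 1 with edgeR as reported, 2 with DESeq2, 3 with no filter on low counts, 2 at an adjusted p under 0.1, and 1 to 2 with any 1 library left out (2 without EB 2). The count of all genes called was 175 of 18387, against 351 of 17897 with DESeq2 and 375 of 31222 with no filter. It was 233 of 18387 at an adjusted p under 0.1, and 102 to 152 with any 1 library left out (131 of 17721 without EB 2). Beyond Htr1a the added calls were Htr1b and, with no filter, Htr4. With any 1 library left out, Htr1d ran from −0.27 to 0.094 and Htr6 from −0.33 to 0.93. Htr1d turned to 0.094 without EB 4 and 0.077 without VEH 1 and EB 4 together, and Htr6 turned to −0.33 without EB 4, −0.24 without VEH 1 and −0.81 without both; the cause was not tested. By coding length, 6 of the 10 receptors kept their place in the order of levels, and Htr7 moved to rank 5, Htr2c to 1, Htr5a to 2 and Htr1b to 4. Removing VEH 1 and EB 4 together, an earlier form of edgeR's fit, and class shares by other lengths, were added after seeing the data. No paired analysis was possible because replicate numbers shared between groups are absent from the labels. Low counts limit what can be said of Htr6, Htr1f and the 4 other serotonin receptor genes.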
